A study of Mus musculus with 28 samples.

Results

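The comparison described here is between livers of Fah-/- mice on a reduced dose of nitisinone (NTBC) and livers of Fah-/- mice on the full dose. It took the 4 arrays whose titles give the genotype FAH- and the reduced dose and the 4 whose titles give FAH- and the full dose, which is 8 of the 28 arrays of the series, and all 20302 features tested on them. Each array was a single-colour Agilent whole mouse genome array hybridised with Cy3-marked liver RNA of 1 sample. Mice of both groups lacked fumarylacetoacetate hydrolase (Fah), so the control group carried the deletion as well, and no group of the series had a working Fah gene. The full dose was 7.5 mg/L NTBC in the drinking water, written as 100% in the labels. For the reduced dose the sample labels give 25% and the treatment notes 2.5% of the normal dose for 3 months, a conflict that the sources used here do not settle. Strain, age and sex are not given in the sources used here. Also used, for levels or for a test of a difference, were 4 arrays of Fah-/- mice with no NTBC and 8 arrays of mice lacking both Fah and p53 (Fah-/- p53-/-), 4 at each of the same doses. No label states whether samples of 1 group are different animals. The p-values here reflect only how far samples spread within the 7 groups of all 28 arrays, which may be technical.

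Fah is the last enzyme of tyrosine breakdown. Without it fumarylacetoacetate and related reactive metabolites build up in hepatocytes, bind glutathione and damage proteins and DNA, and the liver fails unless an upstream step is blocked. NTBC blocks that step by inhibiting 4-hydroxyphenylpyruvate dioxygenase (Hpd), so a lower dose lets more substrate through to the missing enzyme. Cells meet reactive compounds through the factor NRF2, which is held down by Keap1 and, once freed, turns on genes of glutathione synthesis, conjugation and export. DNA damage is answered by p53, shortage of amino acids or faulty proteins by ATF4, and metal ions by the factor Mtf1, which turns on the metallothioneins.

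Levels are log2 processed signals minus the log2 of the array's 75th percentile, so a level of 0 is that percentile and a difference of 1 is a doubling. Levels of different genes are not compared with each other, since each is read by its own probe. Differences are reduced minus full dose, given ± the standard error from 1 limma fit over the 28 arrays, with Benjamini-Hochberg adjustment over the 20302 features. A gene is said to have risen or fallen where the adjusted p was under 0.05, and n is 4 arrays per group throughout. Values of single arrays are given in the order of replicates 1 to 4, and these numbers do not pair the arrays of different groups.

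Of the 20302 features, 8033 or 39.6% were called, 3561 of them higher (17.5% of all features) and 4472 lower (22%) at the reduced dose. The 8 arrays did not overlap between the groups for 44.1% of features. A change of at least 2-fold was seen for 2505 of the called features, 1302 higher and 1203 lower. The balance between directions depended on the scaling: 44.3% of the calls were higher here, 32.7% after normexp correction with 1 background value per array, and 49.1% in the authors' deposited values. The median over all features was -0.03 here, -0.10 with that correction and 0.01 in the deposited values. With the planned normexp correction, in which single spots on a few arrays raised the floor, 2001 features were called. A set of 5022 features, 1905 higher and 3117 lower, was called in the same direction with all of these and with quantile normalization, leaving the planned normexp aside. Dim genes had smaller differences after either alternative, and bright genes that were lower had smaller differences in the deposited values, so those values are given beside a called gene where they differ by more than 1.5 times, and beside a gene that was not called where they call it.

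The arrays of both groups were of like quality, and the groups differed in slide and scan run. The 75th percentile of signal was 281 to 361 on the full-dose arrays and 340 to 378 on the reduced-dose arrays, and 54.8% to 59.8% of the probes were well above background. The 10 spike-in control probes, which receive the same amount of added RNA on every array, read 1.57 to 1.86 over that percentile at full dose and 1.23 to 1.45 at reduced dose. The reduced-dose arrays filled slide 1 of scan run 1 and the full-dose arrays slide 3 of scan run 2, so dose and slide or run cannot be told apart. The hepatocyte markers tested, 16 in all, had a mean level of 7.56 to 7.67 on the full-dose arrays and of 6.83 to 6.99 on the reduced-dose arrays, with 11 lower and 0 higher (7 lower and 1 higher in the deposited values). In bulk liver, fewer cells of a type and less RNA per cell cannot be told apart. The Fah probe read -0.36 to -0.07 at full and -0.15 to -0.01 at reduced dose (difference 0.14 ± 0.21, adjusted p = 0.627). The position of this probe relative to the disrupted part of the gene was not known, so it checks no label.

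**Figure D1:**
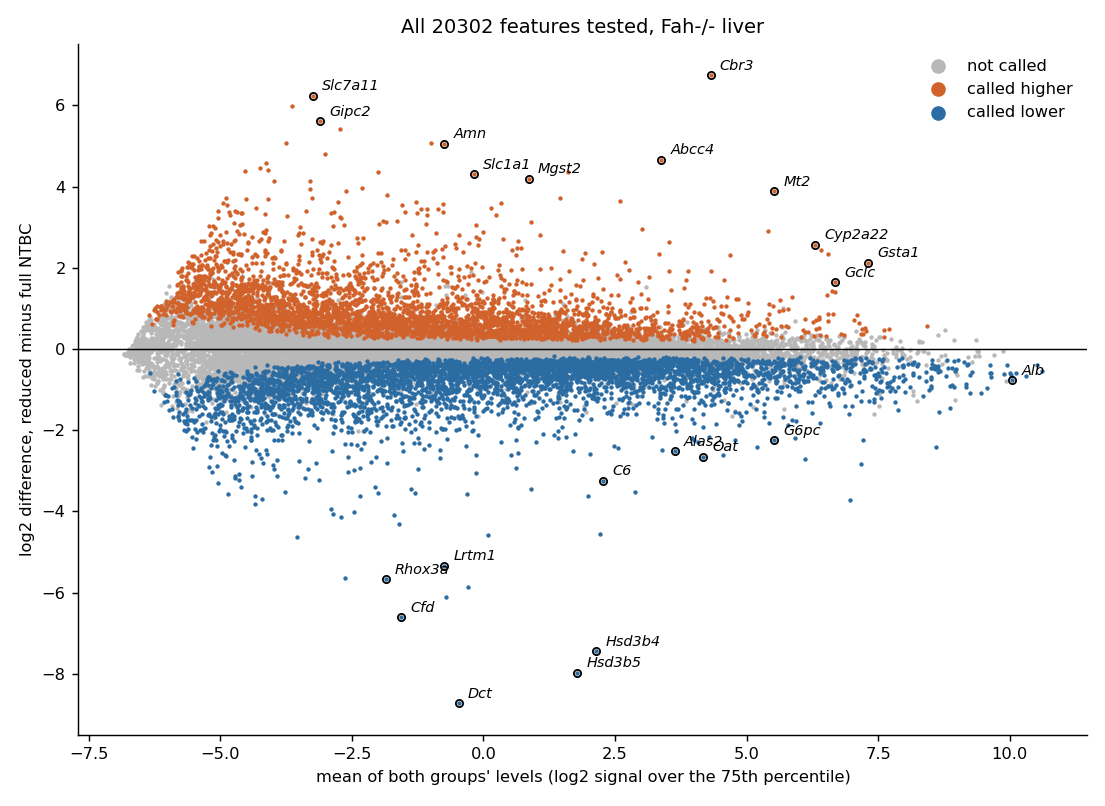
Difference in log2 level between reduced and full dose (vertical axis) against the mean log2 level relative to the array's 75th percentile (horizontal axis) for the 20302 features, with called features coloured by direction and the genes described in the text named. The differences span -8.73 to 6.74 and the features called lower outnumber those called higher, 4472 against 3561.

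The promoters of 6 genes that rose are printed because each holds the short recognition letters of NRF2, ATF4 or Mtf1, the factors introduced above. They come from RefSeq (build GRCm38.p6) and run 5′ to 3′ on the gene's own strand from 250 bases before the transcription start to 50 after it, in lower case with matches in capitals. For the first 3, which are sulfiredoxin (Srxn1), thioredoxin reductase (Txnrd1) and a gamma-glutamyltransferase that splits extracellular glutathione (Ggt1), capitals mark the core of the antioxidant response element, TGACNNNGC, on either strand. For the cystine carrier Slc7a11, which stands in an NRF2 list and whose window holds no antioxidant core, they mark the core of the amino acid response element of ATF4, TGATGNAA, and for the metallothioneins Mt1 and Mt2 the core of the metal response element, TGCACNC or TGCGCNC.
Srxn1, chr2:152105274-152105573, + strand: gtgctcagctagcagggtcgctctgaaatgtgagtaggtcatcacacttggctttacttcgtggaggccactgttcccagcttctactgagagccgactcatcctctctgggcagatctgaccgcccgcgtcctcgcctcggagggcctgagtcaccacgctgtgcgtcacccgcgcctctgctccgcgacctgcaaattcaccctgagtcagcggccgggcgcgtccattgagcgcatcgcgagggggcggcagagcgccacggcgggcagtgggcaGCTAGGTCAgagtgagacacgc
Txnrd1, chr10:82858956-82859255, + strand: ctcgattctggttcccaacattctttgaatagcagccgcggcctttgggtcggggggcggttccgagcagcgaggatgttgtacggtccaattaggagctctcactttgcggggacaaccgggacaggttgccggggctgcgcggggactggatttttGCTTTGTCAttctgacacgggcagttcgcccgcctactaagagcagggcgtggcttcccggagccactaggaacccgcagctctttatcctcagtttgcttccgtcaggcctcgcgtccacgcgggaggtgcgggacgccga
Ggt1, chr10:75563882-75564181, + strand: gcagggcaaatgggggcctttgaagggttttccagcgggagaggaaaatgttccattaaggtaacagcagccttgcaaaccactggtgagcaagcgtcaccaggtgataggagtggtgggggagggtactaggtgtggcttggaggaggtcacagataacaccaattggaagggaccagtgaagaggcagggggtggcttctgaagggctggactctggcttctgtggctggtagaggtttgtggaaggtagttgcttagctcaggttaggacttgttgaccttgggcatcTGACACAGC
Slc7a11, chr3:50443564-50443863, - strand: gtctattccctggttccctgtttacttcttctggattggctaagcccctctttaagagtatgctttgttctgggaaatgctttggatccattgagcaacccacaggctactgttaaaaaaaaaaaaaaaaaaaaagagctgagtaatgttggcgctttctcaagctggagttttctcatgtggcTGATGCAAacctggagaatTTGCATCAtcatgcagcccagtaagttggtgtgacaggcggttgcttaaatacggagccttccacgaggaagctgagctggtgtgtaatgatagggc
Mt1, chr8:94178839-94179138, + strand: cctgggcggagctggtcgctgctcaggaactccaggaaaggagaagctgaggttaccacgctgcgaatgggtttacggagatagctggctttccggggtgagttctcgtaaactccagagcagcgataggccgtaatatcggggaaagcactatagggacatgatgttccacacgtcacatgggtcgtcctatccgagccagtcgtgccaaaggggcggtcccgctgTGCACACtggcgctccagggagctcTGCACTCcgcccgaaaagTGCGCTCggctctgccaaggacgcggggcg
Mt2, chr8:94172368-94172667, + strand: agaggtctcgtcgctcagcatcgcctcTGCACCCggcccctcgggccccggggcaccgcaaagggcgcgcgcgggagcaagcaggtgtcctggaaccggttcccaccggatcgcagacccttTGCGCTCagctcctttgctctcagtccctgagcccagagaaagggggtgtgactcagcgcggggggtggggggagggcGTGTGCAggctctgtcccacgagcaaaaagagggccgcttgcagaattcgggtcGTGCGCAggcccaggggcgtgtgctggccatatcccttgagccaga

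The Srxn1 match starts at +29 and the Txnrd1 match at -92 relative to the transcription start, and the promoter shown for Txnrd1 is 1 of 3 in the table. Ggt1 has its match at +42 and is shown by 1 of 4 promoters, of which 3 hold the core. In Slc7a11 the amino acid response core starts at -66 and at -47. Mt1 holds 3 metal response cores, at -23, +3 and +21, and Mt2 holds 4, at -223, -128, -50 and +5. Capitals mark a single kind of core in each promoter. Left in lower case, the Mt2 promoter also holds the antioxidant core and the Srxn1 promoter the metal core. Such short letters are common: among all 32851 promoters of that length, 12.4% hold the antioxidant core, 25.7% the metal core and 3.97% the amino acid core. Of the 39 promoters of the 28 matched NRF2-list genes that rose, 20.5% hold the antioxidant core, 3 of these 8 promoters being Ggt1's, and of the 18 promoters of NRF2-list genes that fell, 16.7% do. Both metallothionein-list genes that rose hold the metal core, as do both that fell. These are matches of letters and were not tested as binding sites.

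Enzymes and carriers that make and use glutathione, the tripeptide that traps reactive metabolites, were mostly higher at the reduced dose. Of 14 genes of glutathione synthesis and cystine supply 9 rose and 1 fell, with a median difference of 0.65, against -0.03 over all features. Slc7a11, the carrier that brings in cystine, read -5.97, -6.39, -6.73 and -6.34 on the full-dose arrays and 0.92, -0.56, 0.00 and -0.81 on the reduced-dose arrays. It was above background on no full-dose array and on all 4 reduced-dose arrays, which makes it at least 20-fold higher in the processed signal (adjusted p = 2.36e-09). The deposited values give a log2 difference of 2.53, which is a smaller fold. Here and below, "at least" sets the mean of the brighter group against a floor. That floor is the lowest signal that counted as above background on the arrays of the dimmer group. Such a minimum holds for the processed signal only. For every gene given one, the deposited values, stated on the log2 scale, give a smaller difference. Slc1a1, which carries glutamate and cysteine, rose by 4.31 ± 0.35 (adjusted p = 5.58e-09), from levels of -3.39 to -1.81 to levels of 1.57 to 2.31.

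The enzymes that follow cystine uptake moved less. Gclc, the catalytic subunit of the enzyme that starts glutathione synthesis, read 5.63 to 6.03 at full dose and 7.19 to 7.92 at reduced dose. Gss, which finishes the synthesis, rose by 0.77 ± 0.17 (adjusted p = 0.00109). Gsr, which returns oxidised glutathione to its reduced form, rose by 1.04 ± 0.16 (adjusted p = 3.07e-05). Ggt1, whose promoter is shown above, went from -6.85 to -5.87, above background on no array, to -2.34 to -0.47 and was at least 9.27-fold higher (1.55 in the deposited values). Ggt6, a relative of Ggt1, was the only tested member of this list that fell (-0.76 ± 0.20, adjusted p = 0.00359).

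Glutathione S-transferases moved in both directions. Of 20 tested 10 rose and 6 fell, with a median of 0.36 (10 and 3 in the deposited values). The widest rise was of Mgst2, a membrane-bound transferase, which read -2.05, -0.97, -0.65 and -1.26 at full dose and 2.88, 3.35, 3.15 and 2.45 at reduced dose, a difference of 4.19 ± 0.32 (adjusted p = 1.32e-09). The lowest reduced-dose array thus stood well above the highest full-dose array. Mgst3 rose by 1.94 ± 0.27, Gsta1 by 2.13 ± 0.32, Gstm4 by 1.69 ± 0.21 and Gstm2 by 1.41 ± 0.21, all with adjusted p of 1.91e-05 or less. Probes for near-identical family members such as the Gsta, Gstm, Saa, Hsd3b, Cyp2b and Mt genes may share signal, which was not tested. The transferases that fell included Gstm6 (-1.15 ± 0.20, adjusted p = 0.000117) and Gstz1, the maleylacetoacetate isomerase of the tyrosine pathway itself (-0.80 ± 0.14, adjusted p = 0.000112, and -0.53 in the deposited values). Gstp1 read 9.73 to 10.08 at full and 9.26 to 9.40 at reduced dose (-0.60 ± 0.15, adjusted p = 0.00333), a call that the deposited values do not give (-0.20, adjusted p = 0.333).

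Among the 14 quinone, carbonyl and epoxide reductases, which disarm reactive groups, 7 rose and 0 fell (median 0.62). Cbr3, a carbonyl reductase, had the largest rise of all genes with a symbol. It read 0.37, 1.04, 1.37 and 1.03 on the full-dose arrays against 8.08, 7.56, 7.97 and 7.17 on the reduced-dose arrays, a difference of 6.74 ± 0.32 (adjusted p = 9e-13). Akr1b7, an aldose reductase relative, rose by 3.55 ± 0.46 (2.09 in the deposited values, adjusted p = 2.73e-06 here). Ptgr1, which reduces alkenal and prostaglandin double bonds, rose by 1.6 ± 0.37 (adjusted p = 0.00164), with replicate 4 at 0.39 and the other 3 reduced-dose arrays at 1.48 to 1.73. Ephx1, the microsomal epoxide hydrolase, rose by 0.86 ± 0.17 (adjusted p = 0.000299).

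Of 19 thioredoxin, peroxidase and sensor genes 6 rose and 4 fell (median 0.09), against 10 and 1 in the deposited values. Srxn1, which repairs oxidised peroxiredoxins, read 3.32, 3.37, 3.32 and 3.44 at full dose and 6.26, 5.01, 5.23 and 4.65 at reduced dose. Its full-dose arrays lay close together and its reduced-dose arrays were spread, with replicate 1 highest and replicate 4 lowest, a difference of 1.93 ± 0.29 (adjusted p = 1.87e-05). Txnrd1, which recycles thioredoxin, rose by 1.13 ± 0.15 (adjusted p = 4.09e-06), and Gpx2, a glutathione peroxidase best known from gut, by 3.08 ± 0.60 (1.95 in the deposited values, adjusted p = 0.000316 here). The genes of the sensor itself shifted little: Keap1 rose by 0.45 ± 0.12 (adjusted p = 0.00554), and Nfe2l2, which encodes NRF2, by 0.32 ± 0.12 (adjusted p = 0.0476). Reduced-dose replicate 1 read 3.85 for Nfe2l2 beside 3.33 to 3.42 for the others, and without it the adjusted p was 0.229. The Nfe2l2 call was also lost without reduced-dose replicate 3 or full-dose replicate 1, 3 or 4 (adjusted p from 0.0584 to 0.155). Prdx2, a peroxiredoxin, fell by 0.60 ± 0.13 (-0.32 in the deposited values). Catalase (Cat) fell by 0.58 ± 0.15 (adjusted p = 0.00379), which the deposited values do not give (-0.12, adjusted p = 0.518).

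Of 9 enzymes that supply NADPH, the reducing power for these reactions, 2 rose and 0 fell. These were Pgd, of the pentose phosphate path (1.51 ± 0.19, adjusted p = 1.74e-06), and malic enzyme Me1 (1.22 ± 0.23, adjusted p = 0.000176). G6pdx, the first enzyme of that path, read 0.73 to 1.71 and 1.35 to 2.39 with overlapping arrays (0.61 ± 0.32, adjusted p = 0.138).

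**Figure D2:**
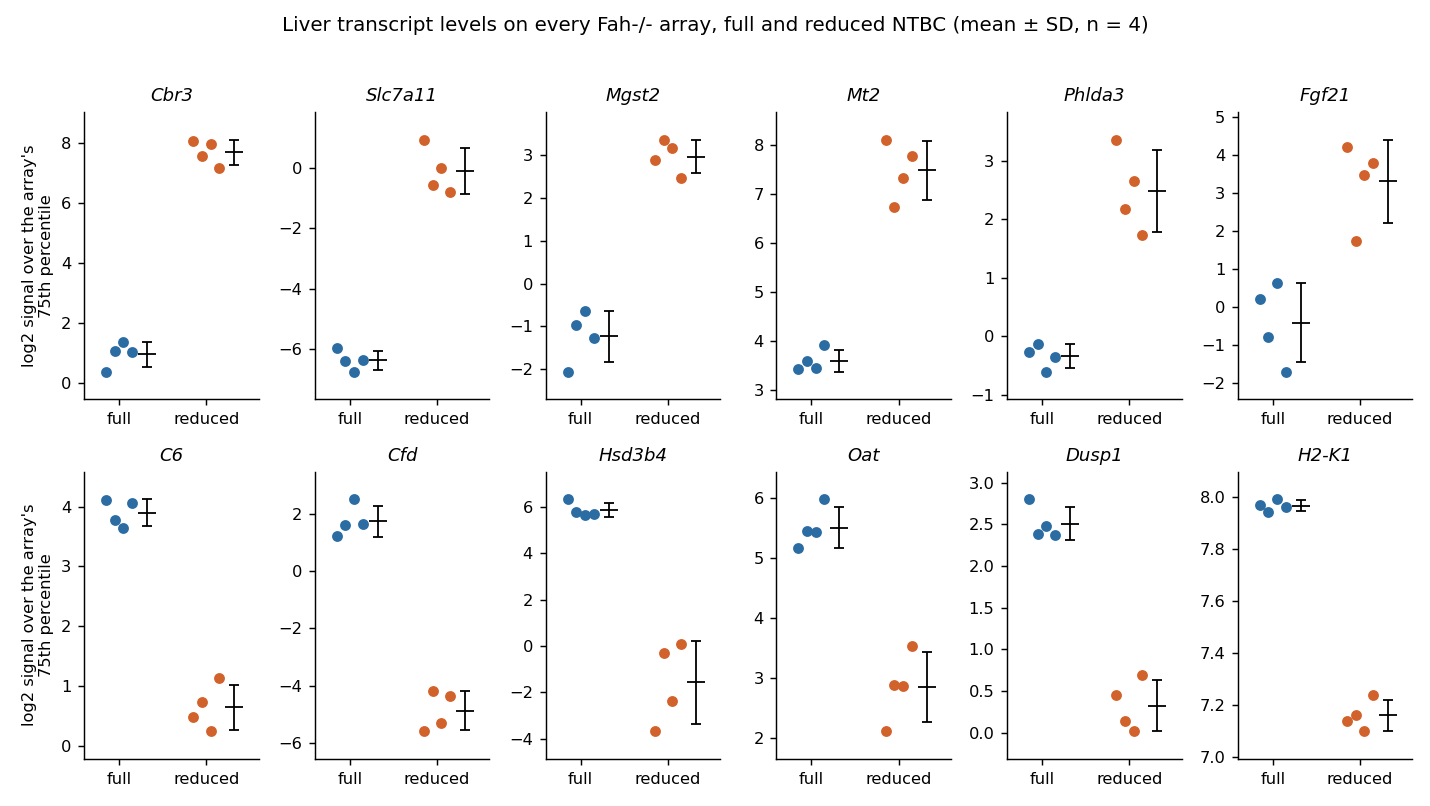
Log2 levels relative to the array's 75th percentile (vertical axis) of 12 genes on each of the 4 full-dose and 4 reduced-dose arrays, with the mean and SD of each group. For Cbr3 the full-dose arrays sit at 0.37 to 1.37 and the reduced-dose arrays at 7.17 to 8.08, while Hsd3b4 goes the other way, from 5.67 to 6.33 down to -3.68 to 0.07.

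Some export pumps of the hepatocyte rose, while 1 export pump and some uptake carriers fell. Abcc4, a pump of the sinusoidal membrane that exports conjugates and bile acids, read 0.67, 1, 1.09 and 1.43 at full dose and 6.19, 5.51, 5.80 and 5.33 at reduced dose (4.66 ± 0.27, adjusted p = 2.61e-11). Abcc5 rose by 2.43 ± 0.18 (adjusted p = 8.01e-10; its 3 probes gave 1.26, 2.43 and 3.82). Abcc2, the canalicular pump for glutathione conjugates, rose by 1.06 ± 0.15 (adjusted p = 7.43e-06). Abcc3, the other sinusoidal pump, read 5.29 to 5.61 and 5.58 to 5.82 and was not called by its brighter probe (0.23 ± 0.16, adjusted p = 0.266), although its second probe gave 0.44 (adjusted p = 0.0347 over probes) and the deposited values give 0.53 (adjusted p = 0.00829). The bile salt export pump Abcb11 fell by 0.66 ± 0.26 (adjusted p = 0.0462), a call that was lost in the deposited values (-0.44, adjusted p = 0.178) and without any 1 of the 8 arrays (adjusted p from 0.0593 to 0.111).

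Of 17 drug uptake and efflux carriers in all, 4 rose and 2 fell (median 0.07). Slc22a7, an organic anion uptake carrier, read 3.31, 2.81, 2.28 and 2.10 at full dose and -1.64, -0.52, -0.69 and -0.43 at reduced dose (-3.45 ± 0.61, adjusted p = 0.000103). Slco1a4, an uptake carrier whose level is higher in female liver, rose by 1.99 ± 0.44 (adjusted p = 0.000895), with replicate 3 at 1.81 and the other reduced-dose arrays at -0.01 to 0.87. Among 25 genes of bile acid synthesis and transport 3 rose and 6 fell (median -0.29; 5 and 4 in the deposited values). Cyp7a1, the rate-limiting enzyme of bile acid synthesis, was not called (0.14 ± 0.54, adjusted p = 0.864). Hsd3b7, the second enzyme of that path, fell by 1.40 ± 0.20 (adjusted p = 7.44e-06), and Fgfr4, the hepatocyte receptor for the gut hormone that restrains it, fell by 1.32 ± 0.22 (adjusted p = 5.61e-05).

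Both main metallothioneins, small proteins that bind zinc and copper, rose. Mt2 read 3.42, 3.59, 3.45 and 3.91 at full dose and 8.10, 6.72, 7.31 and 7.77 at reduced dose (3.88 ± 0.29, adjusted p = 1.29e-09). For Mt1 the probe with the higher signal rose by 2.90 ± 0.33 (adjusted p = 4.23e-07), while its second probe gave 1.15 (adjusted p = 0.0619 over probes). Mt3, the neural form, fell by 1.47 ± 0.23 (adjusted p = 2.6e-05). The probes for the metal sensor Mtf1 disagreed, the brighter one at 0.05 ± 0.12 (adjusted p = 0.788) and the other at 0.54 ± 0.13 (adjusted p = 0.00187 over probes). Slc30a1, the zinc exporter it controls, had overlapping arrays (0.07 ± 0.18, adjusted p = 0.793). Over the 10 metallothioneins and zinc carriers 2 rose and 2 fell, with a median of 0.11 that turns to -0.01 after normexp with 1 background value per array.

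Genes of heme and iron handling were more often lower than higher, 10 against 2 of 24, with a median of -0.22 that turns to 0.02 in the deposited values (4 higher and 6 lower there). Hmox1, the heme oxygenase that NRF2 also controls, read 1.52 to 2.52 at full dose and 2.67 to 3.83 at reduced dose. Tfrc, the transferrin receptor, rose by 1.10 ± 0.30 (adjusted p = 0.00624; 0.73 in the deposited values). Its relative Tfr2, a hepatocyte sensor of iron, fell by 1.05 ± 0.18 (adjusted p = 9.54e-05; -0.68 in the deposited values). Alad, an early enzyme of heme synthesis, fell by 1.04 ± 0.22 (adjusted p = 0.000645). Alas2, the first enzyme of heme synthesis in red cell precursors, read 5.04, 4.74, 5 and 4.82 at full dose and 2.21, 2.70, 2 and 2.59 at reduced dose (-2.52 ± 0.34, adjusted p = 4.69e-06). Of the 10 erythroid and platelet markers, 1 rose and 1, Alas2, fell, and their mean level was -0.82 to -0.58 at full and -1.07 to -0.72 at reduced dose; the part of red cell content in the Alas2 difference was not tested.

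Targets of p53 that halt the cell cycle or feed back on p53 were more often higher, 12 against 3 of 25, with a median of 0.49. Cdkn1a, which encodes the cell cycle inhibitor p21, read -1.17, -1.05, -1.69 and -1.89 at full dose and 2.21, 0.65, 1.5 and 1.40 at reduced dose (2.89 ± 0.42, adjusted p = 1.15e-05). Phlda3, an inhibitor of AKT signalling, read -0.26, -0.13, -0.60 and -0.35 against 3.36, 2.18, 2.66 and 1.74 (2.82 ± 0.26, adjusted p = 3.99e-08). For both genes the lowest reduced-dose array stood above the highest full-dose array. Zmat3, an RNA-binding p53 target, rose by 1.68 ± 0.21 (adjusted p = 1.32e-06). Gadd45a, a stress sensor, rose by 1.04 ± 0.23 (adjusted p = 0.000845), and the kinase Plk2 by 1.02 ± 0.25 (adjusted p = 0.00215). Gadd45g, a relative of Gadd45a, went the other way, from 6.65, 6.36, 5.43 and 5 to 3.69, 3.23, 3.08 and 3.01 (-2.61 ± 0.44, adjusted p = 6.81e-05).

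Of 20 p53 targets in cell death and metabolism 7 rose and 5 fell, with a median of 0.07 that turns to -0.04 in the deposited values. Eda2r, a death receptor, was at least 9.31-fold higher (adjusted p = 1.09e-07; 1.58 in the deposited values; other probes at 1.96 and 4.18), being above background on no full-dose array. Aen, a nuclease, rose by 0.91 ± 0.14 (adjusted p = 2.04e-05). Bbc3, which encodes the killer protein PUMA, read 1.83 to 2.68 and 2.11 to 2.26 and was not called (-0.05 ± 0.17, adjusted p = 0.86). Perp, a membrane protein of desmosomes, fell by 1.17 ± 0.16 (adjusted p = 6.3e-06). The probes for p53 itself disagreed: the one with the higher signal fell by 0.49 (adjusted p = 0.00846) and the other rose by 1.10 (adjusted p = 1.65e-05 over probes), so no direction is given for Trp53.

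Genes that ATF4 turns on, which make and import amino acids, were higher in 10 and lower in 1 of 23 (median 0.63; 10 and 1 with a median of 0.38 in the deposited values). Fgf21, a liver hormone of fasting and amino acid shortage, read 0.23, -0.78, 0.63 and -1.69 at full dose and 4.22, 1.73, 3.49 and 3.80 at reduced dose (3.71 ± 0.57, adjusted p = 2.2e-05). Both groups were spread widely and did not overlap. Psat1, of serine synthesis, was above background on no full-dose array and was at least 10.2-fold higher (adjusted p = 9.29e-07), with reduced-dose replicates 1 and 4 at 0.13 and -0.08 and replicates 2 and 3 at -2.06 and -1.75 (1.70 in the deposited values). Psph, the last step of serine synthesis, rose by 1.19 ± 0.18 (adjusted p = 2.53e-05), while Phgdh, the first step, was not called (-0.38 ± 0.37, adjusted p = 0.447). Mthfd2, a mitochondrial folate enzyme, rose by 1.93 ± 0.30 (0.88 in the deposited values), again with replicates 1 and 4 at -0.46 and -0.85 above replicates 2 and 3 at -2.38 and -2.32. Ddit4, which restrains mTOR, rose by 1.12 ± 0.23 (adjusted p = 0.00057). Asns, asparagine synthetase, had a lower level on every reduced-dose array and was not called (-1.29 ± 0.66, adjusted p = 0.127), nor were Atf4 itself (0.21 ± 0.14, adjusted p = 0.232), which the deposited values call higher (0.38, adjusted p = 0.0311), and the stress hormone Gdf15 (-0.23 ± 0.31, adjusted p = 0.594).

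Folding genes of the endoplasmic reticulum and proteasome genes were more often lower, and cytosolic heat shock genes were not. Of 22 endoplasmic reticulum chaperones and partners 2 rose and 11 fell (median -0.37), and the deposited values give 2 and 5 (median -0.11). Hspa5, the main chaperone of that compartment, read 5.77 to 6.15 and 5.57 to 5.67 and was not called (-0.33 ± 0.14, adjusted p = 0.0529; 0.04 in the deposited values). Ero1a, an oxidase that forms disulfide bonds, was 1 of the 2 that rose (1.10 ± 0.21, adjusted p = 0.000261; second probe 0.57). Of 16 cytosolic heat shock proteins 3 rose and 0 fell (5 and 0 in the deposited values). Of 31 proteasome subunits 0 rose and 20 fell (median -0.33), with Psmb7 at the far end (-0.72 ± 0.10, adjusted p = 4.25e-06; -0.32 in the deposited values, where 2 subunits rose and 8 fell).

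Proteins that the liver secretes into blood were lower as groups. Of 23 complement components 0 rose and 16 fell (median -0.71), of 23 coagulation and fibrinolysis factors 0 and 17 (median -0.82), of 20 acute phase proteins 0 and 11 (median -0.82) and of 21 apolipoproteins and lipoprotein assembly genes 2 and 14 (median -0.50). In the deposited values the counts were 1 and 10, 1 and 13, 1 and 9, and 2 and 3, with medians of -0.44, -0.41, -0.53 and -0.15. The mean level of the complement list was 5.32 to 5.38 on the full-dose arrays and 4.01 to 4.33 on the reduced-dose arrays. The hepatocyte marker list, which itself includes secreted proteins such as Alb and Apoa1, moved in the same direction, as given above. The part of hepatocyte content in these differences was not tested.

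The terminal components of complement, which form the pore in target membranes, were among the larger falls. C6 read 4.11, 3.77, 3.65 and 4.06 at full dose and 0.49, 0.73, 0.25 and 1.13 at reduced dose (-3.24 ± 0.24, adjusted p = 8.69e-10). C8b read 4.67, 4.60, 4.63 and 4.64 against 1.56, 2.44, 1.85 and 2.75, so that 4 close values at full dose became 4 spread ones, all lower, at reduced dose. C8a fell by 1.87 ± 0.44 (adjusted p = 0.00158) and Hc, which encodes C5, fell by 1.28 ± 0.25 (adjusted p = 0.000275). C3, the central and most abundant component, fell by 0.60 ± 0.16 (adjusted p = 0.00557), and this call is lost in the deposited values (-0.02, adjusted p = 0.931) and absent from its second probe (-0.17, adjusted p = 0.65 over probes).

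Cfd, the protease adipsin that starts the alternative pathway and is known mainly as a product of fat, had the widest fall of the secreted proteins. It read 1.22, 1.59, 2.50 and 1.65 at full dose and -5.59, -4.20, -5.32 and -4.38 at reduced dose, above background on 1 of the 4 (-6.61 ± 0.66, adjusted p = 8.8e-08; -3.92 in the deposited values). The fat cell genes Fabp4 (-0.11 ± 0.52, adjusted p = 0.892) and Adipoq (0.23 ± 0.33, adjusted p = 0.62), chosen after their values were seen, were not called, and the part of fat cell content in the Cfd difference was not tested.

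Clotting factors fell within a narrower range. F12, the contact factor, read 6.77, 6.64, 6.50 and 6.60 at full dose and 4.82, 5.26, 5.25 and 5.57 at reduced dose (-1.40 ± 0.15, adjusted p = 2.62e-07). F11 fell by 1.16 ± 0.20 (adjusted p = 6.72e-05) and F7, the short-lived factor of the extrinsic path, fell by 1.15 ± 0.17 (adjusted p = 1.47e-05; -0.76 in the deposited values). Of the acute phase genes, which interleukin 6 and interleukin 1 raise in inflammation, Saa1 fell by 2.01 ± 0.53 (adjusted p = 0.00441) and Saa2 fell by 2.29 ± 0.59 (adjusted p = 0.00399). Haptoglobin (Hp) was not called (-0.18 ± 0.17, adjusted p = 0.418; 0.25 in the deposited values). Itih3, of a hyaluronan-binding protein, fell by 1.41 ± 0.18 (adjusted p = 2.66e-06; -0.93 in the deposited values). Apoa1, the main protein of high density lipoprotein, fell by 1.22 ± 0.15 (adjusted p = 1.38e-06).

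Alb, which encodes albumin, read 10.53, 10.49, 10.19 and 10.54 at full dose and 9.55, 9.67, 9.66 and 9.79 at reduced dose (-0.77 ± 0.10, adjusted p = 1.8e-06). The deposited values give -0.17 (adjusted p = 0.0273) so its size depends on the scaling. Hnf4a, a master factor of the hepatocyte, fell by 0.44 ± 0.12 by its brightest probe (adjusted p = 0.00657). The deposited values do not give this call (-0.18, adjusted p = 0.229), nor do its other probes, at -0.05 and -0.24 (adjusted p = 0.819 and 0.168 over probes).

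**Figure D3:**
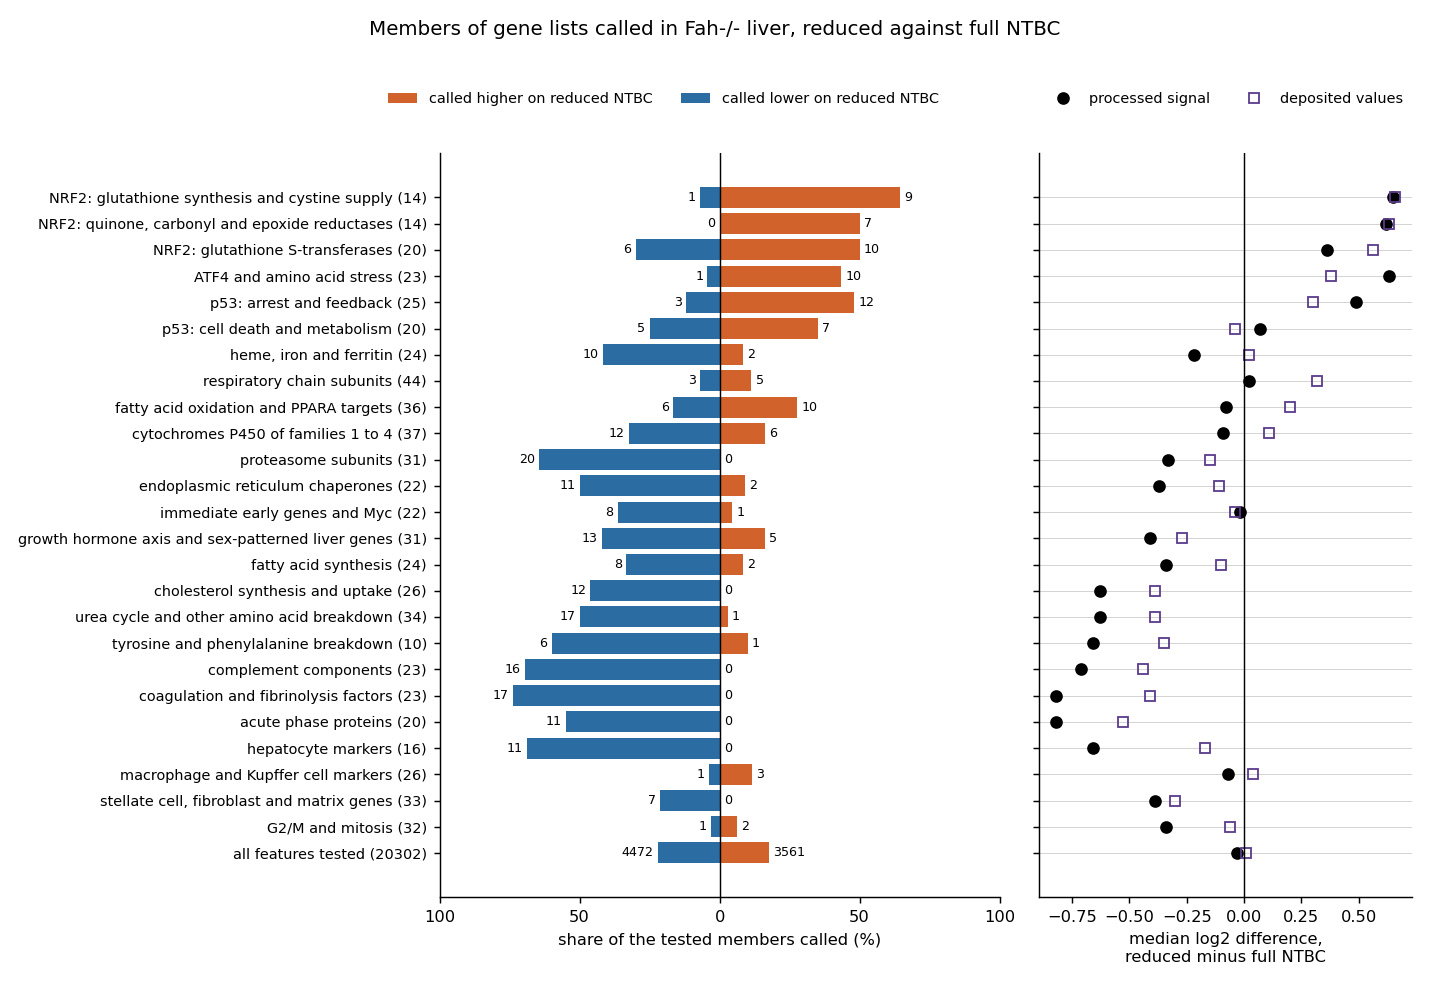
Share of the tested genes of each list called higher or lower at the reduced dose (left, in percent, with counts at the bars) and the median log2 difference of each list from processed signals and from the authors' deposited values (right). Over all features 17.5% were called higher and 22% lower, while coagulation factors had 17 of 23 and complement components 16 of 23 lower.

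Drug-metabolising enzymes split by family member. Of 37 cytochromes P450 of families 1 to 4, 6 rose and 12 fell, with a median of -0.09 that turns to 0.11 in the deposited values (12 and 11). Cyp2a22 read 4.24, 5.02, 5.26 and 5.55 at full dose and 7.63, 7.41, 7.76 and 7.56 at reduced dose (2.57 ± 0.22, adjusted p = 7.2e-09). Cyp2b9, known as higher in female liver, read 0.91, 0.66, 0.41 and 1.10 against 3.92, 3.48, 5.49 and 4.80 (3.65 ± 1.06, adjusted p = 0.00858). Its neighbour Cyp2b13 rose by 3.14 ± 1.07 (adjusted p = 0.0225), with its second probe at 6.13, and the adjusted p was 0.0656 without reduced-dose replicate 3 and 0.0508 without full-dose replicate 3. Among those that fell were Cyp4f14, which breaks down leukotrienes and vitamins E and K (-1.82 ± 0.43, adjusted p = 0.0019), and Cyp2c37, an arachidonate hydroxylase (-1.68 ± 0.49, adjusted p = 0.00869). Cyp3a11, a main drug oxidase of mouse liver, was not called (0.34 ± 0.21, adjusted p = 0.207; 0.55 with adjusted p = 0.0225 in the deposited values).

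Of 28 glucuronosyl- and sulfotransferases and carboxylesterases 7 rose and 8 fell, with a median of -0.04 that turns to 0.12 in the deposited values. Ugdh, which makes the glucuronic acid donor, rose by 1.42 ± 0.15 (adjusted p = 1.71e-07), Ugt1a1, which conjugates bilirubin, by 1.16 ± 0.26 (adjusted p = 0.000994), and the carboxylesterase Ces2c by 1.24 ± 0.18 (adjusted p = 1.33e-05; second probe 0.62). Another carboxylesterase, Ces1e, fell by 1.68 ± 0.21 (adjusted p = 2.18e-06).

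Liver genes patterned by growth hormone and sex were more often lower, 13 against 5 of 31 (median -0.41). The deposited values give 9 against 3 (median -0.27). The steepest falls in this list belong to 1 family. Hsd3b4, a 3-ketosteroid reductase, read 6.33, 5.80, 5.67 and 5.69 at full dose and -3.68, -0.31, -2.40 and 0.07 at reduced dose (-7.45 ± 0.59, adjusted p = 3e-09). Hsd3b5, its close relative, had the same array order, at -4.66, -0.66, -3.41 and -0.09 against 5.58 to 6.21. Both probes may share signal, which was not tested. Elovl3, a fatty acid elongase of male liver, read 3.98 to 4.92 and -1.43, 0.28, -0.25 and 1.18. In all 3 genes reduced-dose replicate 1 was the lowest and replicate 4 the highest. Cux2, a repressor made in female liver, was above background on none of the full-dose arrays and on 3 reduced-dose arrays, at -1.73, -2.64, -3.39 and -4.66, and was at least 2.52-fold higher (adjusted p = 2.13e-05; 0.69 in the deposited values). All 8 arrays carried the male pattern of the Y-linked gene Ddx3y above background and Xist not above it. Of the hormone's own signalling genes, the receptor Ghr fell by 0.89 ± 0.14 (adjusted p = 3.58e-05; -0.51 in the deposited values; other probes -0.87 and -1.46) and Socs3, a feedback inhibitor of cytokine receptors, fell by 2.12 ± 0.34 (adjusted p = 2.98e-05). Igf1, the hormone that growth hormone raises, was not called by its brighter probe (-0.83 ± 0.38, adjusted p = 0.0834), while its second probe gave -1.65.

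Amino acid breakdown was lower as a group. In the tyrosine and phenylalanine path, whose last step these mice lack, 6 of 10 genes fell and 1 rose (median -0.66; 4 and 0 in the deposited values). Tat, the first enzyme, read 6.49, 6.84, 6.56 and 7 at full dose and 4.84, 5.12, 4.95 and 5.04 at reduced dose. Hpd, the enzyme that NTBC inhibits, fell by 1.17 ± 0.22 (adjusted p = 0.000211; -0.73 in the deposited values). Hgd, which follows it, fell by 0.76 ± 0.23 (adjusted p = 0.0115), a call absent from the deposited values (-0.39, adjusted p = 0.156).

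Of 34 genes of the urea cycle and other amino acid breakdown 1 rose and 17 fell (median -0.63; 2 and 10 in the deposited values). Oat, the ornithine transaminase, read 5.17, 5.44, 5.43 and 5.97 at full dose and 2.12, 2.88, 2.87 and 3.53 at reduced dose (-2.65 ± 0.37, adjusted p = 5.48e-06). Lhpp, a histidine phosphatase, read 4.87, 5.08, 4.92 and 5.38 against 2.75, 2.84, 2.91 and 2.95 (-2.20 ± 0.24, adjusted p = 3.11e-07). Hal, which starts histidine breakdown, fell by 1.86 ± 0.36 (adjusted p = 0.000277), and Cbs, of the path from homocysteine to cysteine, fell by 1.47 ± 0.23 (adjusted p = 2.94e-05). Slc1a2, a glutamate carrier of the hepatocytes around the central vein, fell by 1.56 ± 0.46 (adjusted p = 0.0094), with its 4 probes at -0.34 to -1.56 and no call for their mean. Among 24 genes patterned along the lobule 2 rose and 11 fell (median -0.39), against 2 and 6 in the deposited values (median -0.17). With single arrays left out 7 to 9 fell.

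Glucose metabolism changed at single steps. Of 17 genes of gluconeogenesis, glycogen and glucose entry 1 rose and 5 fell, with a median of -0.31 that turns to 0.03 in the deposited values. G6pc, which releases free glucose, read 6.48, 7, 7.01 and 6.10 at full dose and 4.19, 4.62, 4.26 and 4.56 at reduced dose (-2.24 ± 0.36, adjusted p = 3.29e-05). The member that rose was Ppargc1a, a coactivator of gluconeogenesis and mitochondrial genes (1.44 ± 0.24, adjusted p = 5.02e-05; second probe 0.81). The subunits of lactate dehydrogenase moved apart: Ldhb, the heart form, rose by 2.41 ± 0.29 (adjusted p = 1.09e-06), from levels of 0.13 to 0.44 to levels of 2.34 to 3.17, and Ldha, the liver and muscle form, fell by 0.97 ± 0.11 (adjusted p = 2.95e-07).

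Lipid synthesis genes were more often lower than higher, and some fat storage and oxidation genes were higher. Of 24 fatty acid synthesis genes 2 rose and 8 fell (median -0.34), against 3 and 7 in the deposited values (median -0.10). Of 26 genes of cholesterol synthesis and uptake 0 rose and 12 fell (median -0.63), against 0 and 7 in the deposited values (median -0.39). Over all features 17.5% were called higher and 22% lower. Scd1, the main desaturase of liver, read 7.63, 6.30, 6.78 and 6.57 at full dose and 4.90, 5.31, 5.29 and 4.69 at reduced dose (-1.77 ± 0.49, adjusted p = 0.00583). Its relative Scd2, the desaturase of fetal liver and brain, went from 0.02 to 0.62 to 3.18, 2.94, 2.04 and 0.98 (1.99 ± 0.59, adjusted p = 0.00958). Fasn, fatty acid synthase, fell by 1.13 ± 0.30 (adjusted p = 0.00406; second probe -1.76). Fdps, of the cholesterol path, read 3.66 to 5.10 at full and 2.67 to 3.20 at reduced dose.

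Of 36 genes of fatty acid oxidation and PPARA targets 10 rose and 6 fell, with a median of -0.08 that turns to 0.20 in the deposited values. Cd36, a fatty acid carrier, rose by 1.82 ± 0.18 (adjusted p = 1.03e-07). Cidec, which enlarges fat droplets, read 0.71, 1.08, 1.58 and 0.81 against 3.57, 2.51, 2.63 and 2.25 (1.69 ± 0.25, adjusted p = 1.49e-05). Cyp4a10, a fatty acid hydroxylase, rose by 1.33 ± 0.26 (adjusted p = 0.000306). Fabp1, the abundant fatty acid binding protein of liver, fell by 1.09 ± 0.14 (adjusted p = 2.41e-06; -0.51 in the deposited values).

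Immediate early genes, which respond within minutes to growth signals or handling, were lower in 8 and higher in 1 of 22 (median -0.02). Dusp1, a phosphatase of MAP kinases, read 2.80, 2.39, 2.48 and 2.37 at full dose and 0.45, 0.14, 0.02 and 0.69 at reduced dose (-2.19 ± 0.31, adjusted p = 6.73e-06). Junb fell by 1.83 ± 0.39 (adjusted p = 0.000652), Zfp36, which destroys cytokine messages, fell by 1.61 ± 0.22 (adjusted p = 4.98e-06; second probe -1.07), and Ier2 fell by 1.47 ± 0.23 (adjusted p = 2.77e-05). Among 18 circadian clock genes 1 rose and 2 fell, with Bhlhe40 at -1.42 ± 0.30 (adjusted p = 0.000729).

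Markers of fetal liver and liver tumours were higher in 9 and lower in 6 of 29, with a median of 0.62 that turns to -0.03 after normexp with 1 background value per array and is 0.04 in the deposited values. Ly6d, a surface protein, read -0.88 to -0.28 at full dose and 4.53, 3.33, 4.06 and 3.25 at reduced dose. Spink1, a trypsin inhibitor, read -2.20 to -1.10 against 2.94, 2.97, 1.80 and 0.82 (3.59 ± 0.67, adjusted p = 0.00018). Gpc3, a heparan sulfate proteoglycan of fetal liver, read -3.57 to -2.27 against 1.12, 0.94, 1.34 and -0.80. Spink1 and Gpc3 thus shared replicate 4 as the lowest reduced-dose array. Afp, the classical fetal protein, was not called (0.81 ± 0.56, adjusted p = 0.266), with arrays at 0.82 to 1.34 and 1.18 to 2.72. The cell cycle inhibitor Cdkn1c rose by 1.70 ± 0.29 (adjusted p = 6.36e-05) and Anxa13, an epithelial annexin, by 2.50 ± 0.55 (adjusted p = 0.000911).

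Proliferation genes were called less often than features as a whole. The shares called were 17.6% for G1, 30% for S phase and 9.38% for G2/M, beside 39.6% of all features. Of 17 G1 cyclins and inhibitors 3 rose and 0 fell, and of 30 S phase and replication genes 1 rose and 8 fell. Over all features 17.5% were higher and 22% lower, so the share of S phase genes that fell was not below that of all features. For G2/M and mitosis 2 of 32 rose and 1 fell, 8 of these 32 being above background in neither group. Mki67 was not called (-0.82 ± 0.66, adjusted p = 0.344), and thymidine kinase Tk1 fell by 1.49 ± 0.41 (adjusted p = 0.00574).

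Of other liver cell types, macrophage, lymphocyte and endothelial markers were called in both directions. They were called less often than features as a whole, at 15.4%, 30.4% and 23.1% beside 39.6%. Of 26 macrophage and Kupffer cell markers 3 rose and 1 fell, with mean levels of 0.16 to 0.66 and 0.29 to 0.77, and the defining markers Clec4f (-0.14 ± 0.24, adjusted p = 0.694) and Adgre1 (0.32 ± 0.36, adjusted p = 0.513; second probe 1.03) were not called. Cd14, an endotoxin receptor of macrophages and hepatocytes, rose by 1.67 ± 0.28 (adjusted p = 5.16e-05). Of 23 lymphocyte markers 4 rose and 3 fell. Cd3e, a T cell receptor subunit, read -1.19, -1.13, -1.15 and -1.27 at full dose and -2.64, -2.70, -2.16 and -2 at reduced dose (-1.19 ± 0.14, adjusted p = 7.35e-07; -0.76 in the deposited values). Gzma, a granzyme of killer cells, was above background on no full-dose array and was at least 2.93-fold higher (adjusted p = 0.00172; 0.66 in the deposited values). Of 26 endothelial markers 4 rose and 2 fell, with Pecam1 at 0.59 ± 0.13 (adjusted p = 0.00132; 0.29 in the deposited values) and Lyve1 of sinusoidal cells at 1.48 ± 0.52 (adjusted p = 0.0263, and from 0.0502 to 0.0876 without reduced-dose replicate 1 or 2 or full-dose replicate 1, 2 or 4).

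Duct markers were more often lower than features as a whole, and matrix genes were not. Of 15 cholangiocyte and progenitor markers 0 rose and 7 fell (median -0.73; 5 in the deposited values). Krt19 read -0.48, -0.65, -2.11 and -1.18 at full dose and -3.48, -3.39, -3.56 and -3.25 at reduced dose (-2.32 ± 0.51, adjusted p = 0.000984; -1.17 in the deposited values). Krt7, its partner keratin, fell by 1.89 ± 0.42 (adjusted p = 0.000916; -1.13 in the deposited values; second probe -0.98, not called), and Sox9, a duct and progenitor factor, was not called (0.85 ± 0.43, adjusted p = 0.123). Of 33 stellate cell, fibroblast and matrix genes 0 rose and 7 fell (21.2%, median -0.39), beside 22% of all features called lower. Collagen Col1a1 was not called, with reduced-dose arrays spread from -2.01 to 0.55 (-0.68 ± 0.67, adjusted p = 0.454).

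Of 32 interferon response and antigen presentation genes 0 rose and 5 fell (15.6% called). Over all features 39.6% were called, 17.5% higher and 22% lower, so this list was called less often than features as a whole. H2-K1, a class I histocompatibility chain, read 7.97, 7.94, 7.99 and 7.96 at full dose and 7.14, 7.16, 7.10 and 7.24 at reduced dose and the groups stood apart with little spread within either (-0.80 ± 0.09, adjusted p = 7.86e-07; -0.41 in the deposited values). Its partner B2m fell by 0.66 ± 0.09 (adjusted p = 9.49e-06; -0.30 in the deposited values). Of 21 chemokines 2 rose and 2 fell (19% called), and the neutrophil attractant Cxcl1 rose by 1.72 ± 0.42 (adjusted p = 0.00245). Of 29 growth factors and injury signals 2 rose and 7 fell (31% called, again less often than features as a whole). Among these and related genes Lifr, a receptor of the interleukin 6 family, fell by 1.38 ± 0.21 (adjusted p = 1.7e-05; its 5 probes gave -0.56 to -1.38), Egfr, a growth factor receptor, fell by 0.95 ± 0.25 (adjusted p = 0.0047; its other 3 probes gave -2.04 to -1.41), and Inhba, an activin subunit, fell by 1.55 ± 0.30 (adjusted p = 0.000271).

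Several of the largest changes were in genes outside these groups. Amn, a partner of the cubilin receptor in kidney and gut, read -3.55, -3.25, -2.85 and -3.43 at full dose and 1.89, 1.5, 2.17 and 1.6 at reduced dose (5.06 ± 0.30, adjusted p = 3.66e-11). S100g, the calcium-binding protein calbindin D9k, read -4.20, -2.87, -3.09 and -3.94 against 1.97, 1.88, 1.81 and 0.53 (5.07 ± 0.37, adjusted p = 1.1e-09). Neither gene's groups overlapped, and S100g was above background on 3 of the 4 full-dose arrays. The following 5 were above background on no full-dose array: Gipc2, a scaffold protein, was at least 17.5-fold higher, Pramel27 at least 13.9-fold, the transporter Abcc12 at least 5.85-fold, Oog1, of oocytes, at least 5.35-fold and Ptgfr, a prostaglandin receptor, at least 4.27-fold. The deposited values give 2.24, 2.03, 1.27, 1.20 and 1.08 for these 5 on the log2 scale.

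Among the largest falls, Dct, a melanin enzyme, read 4.08, 3.99, 3.50 and 4.04 at full dose and -6.73, -3.14, -4.08 and -5.35 at reduced dose, above background on 2 of these 4 (-8.73 ± 1.57, adjusted p = 0.000132; -5.79 in the deposited values). Lrtm1, a leucine-rich repeat protein, read 1.66 to 2.36 against -4.09 to -2.82 (-5.34 ± 0.59, adjusted p = 3.61e-07). Lnx1, a ubiquitin ligase, fell by 4.10 ± 0.70, Adgrf1, an adhesion receptor, fell by 4.30 ± 0.41 and Gas1, a growth arrest protein, fell by 4.07 ± 0.41, with -2.58, -2.65 and -1.72 in the deposited values. Gas1 was above background on 1 of the 4 reduced-dose arrays. The olfactory receptor gene Olfr125 was at least 10-fold lower (adjusted p = 1.89e-08; -1.54 in the deposited values). A few falls came with a wide spread: Syt10, a vesicle protein, read 3.66, 3.27, 1.92 and 0.66 against -3.46, -3.64, 0.61 and -2.28, and 1 probe of Grn, progranulin, fell by 3.71 ± 0.92 where its other probe gave -0.77. Rhox3a was above background on no reduced-dose array, and its mean is at least 45.1-fold lower there (measured difference -5.67 ± 1.70, adjusted p = 0.0106; -3.64 in the deposited values). Full-dose replicate 3 alone read 10.83 and the other 3 read -2.39 to -2.26, and without replicate 3 the measured difference was -2.38 (adjusted p = 7.6e-05), for which no bound was computed.

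The levels of the same genes with no NTBC place the reduced dose between the other doses for some genes and beyond both for others, such as Cyp2b9. The no-NTBC arrays come from scan run 3, and a comparison with them would share the full-dose arrays, so levels are given and no test. Mean levels at full, reduced and no NTBC were 3.36, 5.29 and 6.83 for Srxn1, -0.31, 1.29 and 5.33 for Ptgr1, and 1.05, 2.74 and 5.99 for Cidec. Psat1 went from -4.57 to -0.94 to 2.67, and C8b from 4.63 to 2.15 to -2.12. In these 5 genes the reduced dose was intermediate. Cbr3, at 0.95, 7.69 and 7.66, and Mt2, at 3.59, 7.47 and 7.47, had like levels at reduced and no NTBC. For Afp the levels were 1.18, 1.99 and 8.26. Cyp2b9 had its highest arrays at the reduced dose, with means of 0.77, 4.42 and 0.32. So did other genes, among them Ppargc1a, at -0.14, 1.30 and -0.48, and Slco1a4, at -1.24, 0.76 and -2.19. Fgf21, at -0.40, 3.31 and 2.73, and Gadd45g, at 5.86, 3.25 and 4.28, had arrays that overlapped between reduced and no NTBC. The spread between arrays at each dose is in the plot of levels at the 3 doses.

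**Figure D4:**
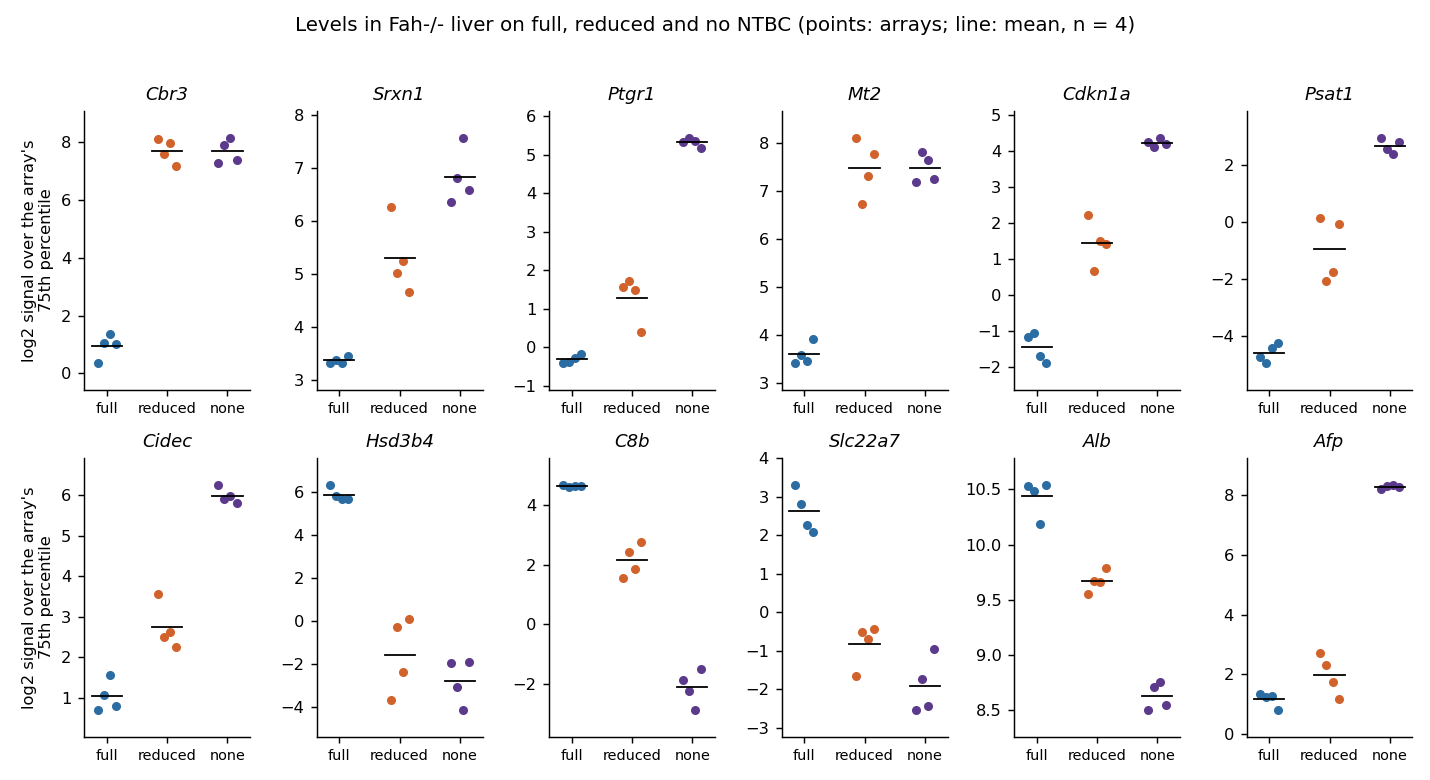
Log2 levels relative to the array's 75th percentile (vertical axis) of 12 genes in Fah-/- liver at full, reduced and no NTBC (horizontal axis), 4 arrays each, with a short line at each group mean. Cbr3 reads 7.17 to 8.08 at the reduced dose and has a mean of 7.66 with no NTBC, while Afp has means of 1.18, 1.99 and 8.26.

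The same lowering of dose was also measured in Fah-/- p53-/- liver, with no array shared, and the difference between the responses of both genotypes was tested. It was called for 2076 or 10.2% of features, more positive without p53 for 1344 (6.62%) and more negative for 732 (3.61%); the former made up 64.7% of the calls here and 50.6% after normexp with 1 background value per array. Each of these 4 groups sat on a separate slide, so genotype and slide cannot be told apart. Without reduced-dose replicate 2 of the Fah-/- group the difference was called for 1371 features, 449 of them more negative, and without reduced-dose replicate 2 of the Fah-/- p53-/- group 474 were more negative.

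Several p53 targets had a smaller rise without p53. Phlda3 changed by 0.44 there against 2.82 in Fah-/- liver, a difference of -2.38 ± 0.37 (adjusted p = 0.000327). Zmat3 changed by 0.56 against 1.68 (difference -1.11 ± 0.29, adjusted p = 0.0171), Aen by 0.03 against 0.91 (-0.88 ± 0.20, adjusted p = 0.00654), Gadd45a by -0.25 against 1.04 (-1.29 ± 0.32, adjusted p = 0.0125) and Ccng1, a cyclin G, by 0.67 against 1.76 (-1.10 ± 0.28, adjusted p = 0.0154). Of the 25 arrest and feedback targets the difference was more negative for 5 and more positive for 1, Gadd45g (3.88 ± 0.63, adjusted p = 0.00043). Cdkn1a rose by 2.99 without p53 and 2.89 with it, a difference of 0.10 (adjusted p = 0.945), and for Mdm2, which degrades p53, the difference was 0.03 (adjusted p = 0.947).

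Of the 14 genes of glutathione synthesis and cystine supply 0 had a called difference in the limma fit (2 at an unadjusted p under 0.05), and of the 20 transferases 3 did, beside 10.2% of all features. For Ggt1, which was not above background at full dose in Fah-/- liver, the difference was 0.34 (adjusted p = 0.744) here but was called with 1 background value per array (1.52, adjusted p = 0.00511) and in the deposited values (1.56, adjusted p = 0.00239). A difference that was not called does not show that the responses were alike. Mgst2 rose more without p53 (6.23 against 4.19, difference 2.04 ± 0.45, adjusted p = 0.00555), Gstp1 changed by 0.94 against -0.60 (1.54 ± 0.22, adjusted p = 0.000112) and Gstt3 by -0.40 against 1.10 (-1.5 ± 0.36, adjusted p = 0.00984).

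Several genes with wide differences had another level at full dose without p53, and 6 of them, chosen after their values were seen, are described here. Mt2 was at 8.55 on full NTBC without p53 and changed by -1.56, so that its response differed by -5.44 ± 0.41 (adjusted p = 2.07e-08), and Mt1 was at 8.29 there and differed by -4.75 ± 0.46. Hsd3b4 was at -2.80 on full NTBC without p53, against 5.87 in Fah-/- liver, and changed by -0.21. C6 was at -0.71 at both doses without p53, against 3.89 and 0.65, so the difference was 3.24 ± 0.33 (adjusted p = 2.17e-06). Cfd was at -2.86 and changed by -0.93 (difference 5.68 ± 0.93, adjusted p = 0.00048). Slco1a4 fell from 2.24 to 0.07 without p53 and rose from -1.24 to 0.76 with it (difference -4.16 ± 0.62, adjusted p = 0.000197). In these 6 genes the reduced-dose levels of both genotypes lay closer together than the full-dose levels did.

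Dusp1 (difference 2.28 ± 0.43, adjusted p = 0.00191), G6pc (2.38 ± 0.50, adjusted p = 0.00455) and Cd3e (1.26 ± 0.20, adjusted p = 0.000327) had changes of 0.09, 0.14 and 0.07 without p53. Cd36 changed by 0.27 there against 1.82 (difference -1.54 ± 0.26, adjusted p = 0.00063).

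**Figure D5:**
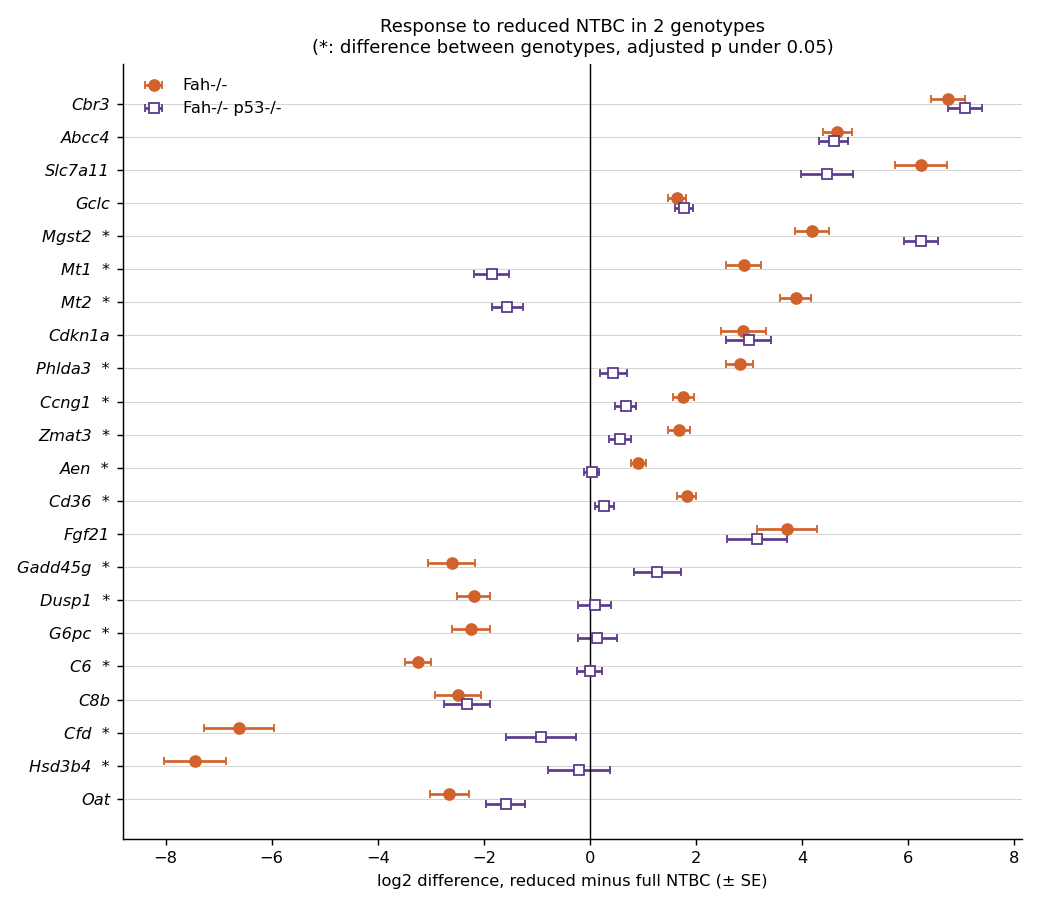
Log2 difference between reduced and full NTBC ± SE (horizontal axis) for 22 genes in Fah-/- and in Fah-/- p53-/- liver, with an asterisk where the difference between the genotypes had an adjusted p under 0.05. The rise of Phlda3 is 2.82 in Fah-/- and 0.44 in Fah-/- p53-/- liver, and that of Cbr3 is 6.74 and 7.06.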

How the data were processed

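Each array carried liver RNA of 1 sample, amplified from 0.1 ug and labelled with Cy3 per the labels' protocols. The file headers name Agilent Feature Extraction 10.7.3.1, while the submitters' processing notes name 10.5. Per the file headers, the deposited scanner files give a processed intensity for every spot, with background removed and no scaling across arrays. They also give, as deposited, the median intensity of spot and background and 0/1 flags, such as that for a spot well above background. The authors' deposited value table holds log2 values whose distributions are equal across arrays, as after quantile normalization. The software behind it was not known.

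From the scanner files, 1639 control spots were left out, repeat spots were averaged to 41174 probes, and the log2 of each array's 75th percentile was subtracted. Probes had to be well above background on each of the 4 arrays in 1 or more of the 7 groups, which 27508 were. RefSeq accessions gave symbols to 28462 probes and not to 12712, and so to 14572 of 20302 features. Where several probes were kept (5450 features), that with the highest mean level was used. The limma package (3.58.1, R 4.3.3) fitted 1 mean per group over 28 arrays (21 residual degrees of freedom), with Benjamini-Hochberg adjustment over all features and calls at an adjusted p under 0.05. On simulated data for reduced against full NTBC in Fah-/- liver, with 20302 genes, 71% of 100 genes changed by a log2 of 1, 95% of 100 changed by 2 and 11 of 20102 unchanged genes were called. The simulated noise was independent between genes and held no slide or run effect. Far fewer genes were changed than the 39.6% called in the data, so these rates do not carry over to it.

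The comparison, its gene lists and their members were chosen with earlier results of these data known. Genes named come from the 15 steepest increases and the 15 steepest decreases among called genes whose arrays did not overlap, and from the lists, where members were chosen after their values were seen, besides Fah, Trp53 and Cdkn1a. Alternatives were normexp (offset 50, on median rather than the planned mean intensities), quantile normalization, the deposited values, other filters and probe rules, other variance fits, the replicate block, a minimum of 2-fold and each array left out. Normexp with 1 background value per array was added after seeing the data.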

Additional observations from a re-analysis of the deposited data

Results flagged for a closer look

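In groups of 4, a single array lay apart from the other 3 for 23 of 356 sets of values examined, where chance gives about 1 in 20. The log2 level of that array is given in brackets. Full-dose replicate 1 did so for Ephx1 (5.90), Txnrd1 (4.32) and Aen (1.23). Full-dose replicate 2 did so for Akr1b7 (-2.69). Full-dose replicate 3 did so for Alb (10.19), Cdkn1c (-0.27), Gzma (-4.56), Dct (3.50) and Rhox3a (10.83). Full-dose replicate 4 did so for Alad (6.74), Phgdh (-2.80), Afp (0.82) and Tk1 (3.05). Reduced-dose replicate 1 did so for Nfe2l2 (3.85), Mt3 (-1.23) and Slc30a1 (1.75). Reduced-dose replicate 2 did so for Egfr (4.70). Reduced-dose replicate 4 did so for Me1 (3.40), Fah (-0.01), Fasn (5.39), Zfp36 (2.55), S100g (0.53) and Ptgfr (-3.42). Without the array at 10.83 the Rhox3a difference was -2.38 (adjusted p = 7.6e-05) instead of -5.67, and without that at 3.85 the call of Nfe2l2 was lost (adjusted p = 0.229).

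The response to the reduced dose differed between Fah-/- p53-/- and Fah-/- liver by the test of the difference itself for 36 of the 178 genes. The response without p53 was more positive, on the log2 scale, for Hsd3b5 (7.39), Hsd3b4 (7.24), Dct (7.03), Cfd (5.68), Syt10 (5.33), Grn (4.04), Gadd45g (3.88), Olfr125 (3.45), C6 (3.24), G6pc (2.38), Dusp1 (2.28), Gas1 (2.18), Adgrf1 (2.16), Mgst2 (2.04), Socs3 (1.81), Gstp1 (1.54), Inhba (1.44), Lifr (1.39), Cd3e (1.26) and Psmb7 (0.46). It was more negative for Mt2 (-5.44), Mt1 (-4.75), Slco1a4 (-4.16), Cux2 (-3.82), Abcc12 (-2.53), Cxcl1 (-2.40), Phlda3 (-2.38), S100g (-1.76), Cd36 (-1.54), Gstt3 (-1.5), Gadd45a (-1.29), Zmat3 (-1.11), Ccng1 (-1.10), Bbc3 (-0.91), Aen (-0.88) and Pecam1 (-0.65). With 1 background value per array and in the deposited values the differences were smaller for Cux2 (-1.15 and -1.24), Abcc12 (-1.29 and -1.02), Olfr125 (1.09 and 1.42), Cfd (3.53 and 3.54), Dct (4.56 and 4.43) and Cd3e (0.79 and 0.76), and those of S100g (-0.49 and -0.48) and Gas1 (0.45 and 0.36) were not called. The list mixes genes that rose in Fah-/- liver, such as Phlda3, Mt2 and Cd36, with genes that fell, such as Hsd3b4, C6 and Dusp1. Genotype and slide cannot be told apart here.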

How the results depend on the processing

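Slide and scan run coincide with dose, so no fit could separate them, and 4 arrays a group limit the precision; a probe above background on no array of a group has only a bound there. Beside the 8033 calls, the planned normexp correction made 2001 (786 higher and 1215 lower; 1995 shared in direction), 1 background value per array 6752 (2211 higher; 5825 shared) and a 2-fold minimum 2505 (1302 and 1203). In the planned correction the lowest spot on full-dose replicate 3 lay at -682 and those on 3 other arrays at -11049.5, -21547.5 and -41159 relative to local background, and the 1st percentile of these 4 arrays after correction was 119.1, 397.8, 543.8 and 559.9 beside 54.8 to 75.8 elsewhere. Leaving out single arrays gave 6513 to 7794 calls, 2980 to 3399 higher and 3533 to 4395 lower. For the difference between genotypes, called for 2076 features, normexp gave 72 (53 more positive and 19 more negative), 1 background value per array 861 (436 and 425), a 2-fold minimum 1040 (772 and 268), and probes above background on all arrays compared 857 more positive. Leaving out single arrays gave 1371 to 2245, with 920 to 1505 more positive and 449 to 775 more negative. The cause of these shifts was not tested.

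Of 178 genes examined singly, 155 were called, and 120 of these kept the call in every alternative, the 2-fold minimum included. The planned normexp ended 22: Ggt6, Prdx2, Cat, Keap1, Nfe2l2, Abcb11, Tfrc, Trp53, Mthfd2, Psmb7, C3, Alb, Hnf4a, Cux2, Hgd, Gzma, Pecam1, Lyve1, Oog1, Abcc12, Ptgfr and Rhox3a. The deposited values ended 6, a left-out array 4 and 1 background value per array 0. Reversed were C3 with quantile normalization (0.03, adjusted p = 0.917) and Trp53 with the mean of its probes (0.31, adjusted p = 0.0437). Of the differences between genotypes named, those of S100g (-0.49), Gas1 (0.45) and Grn (4.10) lost the call with 1 background value per array, as did Syt10. With the replicate number as a block 8182 and 2163 features were called, and of the genes named Nfe2l2 lost its call. Same-numbered arrays deviated from their group means with correlations of -0.01, -0.06, -0.05 and 0.07, so the numbers do not pair them, and not every array correlated best with its own number.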

Other observations

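The respiratory chain moved with the scaling. Of 44 subunits 5 rose and 3 fell at the reduced dose (median 0.02), with mean levels of 6.21 to 6.29 on the full-dose and 6.19 to 6.37 on the reduced-dose arrays, and the deposited values give 26 higher and 0 lower (median 0.32). Of 29 hepatocyte transcription factors 2 rose and 12 fell (median -0.37), of 30 DNA repair and checkpoint genes 5 rose and 5 fell, and of 32 epithelial junction, keratin and annexin genes 1 rose and 10 fell (median -0.25). Over all features these shares were 17.5% and 22%.

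Among features above background, arrays of the reduced-dose group varied more than those of the full-dose group. This was not seen over all features tested. There, the SD of an array from its group mean was 0.262 to 0.309 at reduced and 0.293 to 0.307 at full dose. Over 15393 features above background on all 8 arrays the median SD was 0.17 against 0.124, and 65.5% of features had the larger SD at reduced dose. Several of the most variable genes, chosen after their values were seen, set replicates 1 and 2 apart from replicates 3 and 4. Fam25c read 3.29, 3.01, -0.58 and -1.25 against 4.48 to 4.83 at full dose. Igsf23 read 1.75, 0.97, -0.95 and -1.58, Cox6b2, a cytochrome oxidase subunit, 1.07, 1.06, -1.18 and -1.17, and Tctn2 -0.42, -0.03, -2.45 and -2.56. H2-Q1, a class I gene, read -0.64, -1.71, -3.17 and -3.26, and Tff3, a trefoil peptide, 0.62, 0.36, -1.72 and -1.41. Naip2, of the inflammasome, went the other way at -2.48, -2.95, -0.51 and -0.96, as did Plcd3 at -4.07, -3.65, -1.52 and -1.88. The labels give no property that separates these pairs of samples.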
